A study of Mus musculus with 4 samples.

Results

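PRC1.6 is a Polycomb complex that keeps germline genes silent in mouse ESCs, and its subunit genes were examined in AB2.2 mouse ESCs kept with or without added lactate. The 10 subunit genes, taken by symbol, were Mga, Max, E2f6, Tfdp1, L3mbtl2, Pcgf6, Rnf2, Rybp, Yaf2 and Cbx3, out of 55335 genes in the count table. All 10 passed the filter on low counts, which left 18661 genes for the test. None of the 10 was called higher or lower with lactate, where a call needed both an adjusted p under 0.05 and more than a 2-fold difference. Of all genes tested only 0.552% were called higher and 0.348% lower, so the absence of calls among 10 genes says little about them. The subunits with the lowest p-values were Yaf2 and Rybp, with more RNA in both lactate libraries, and Max, with less.

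The complex is built on PCGF6 and the ubiquitin ligase RNF2 (RING1B), which places ubiquitin on histone H2A. It is brought to DNA by the pair MGA and MAX, which reads the E-box, and by the pair E2F6 and DP1 (the product of Tfdp1), which reads E2F sites. L3MBTL2 carries MBT domains, RYBP and its paralog YAF2 bind RNF2 and stimulate its activity, and CBX3 is HP1 gamma, a reader of methylated histone H3. In ESCs the complex is best known for holding down genes of meiosis and of the piRNA pathway, and loss of Mga, Max, Pcgf6, E2f6 or L3mbtl2 is known to release such genes.

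The study asked how added lactate changes the transcriptome of ESCs. Both groups grew on mouse embryonic fibroblast (MEF) feeders in serum with leukemia inhibitory factor, the GSK3 inhibitor CHIR99021 and the MEK inhibitor PD0325901. The 2 control libraries had no lactate added, and the 2 lactate libraries came from cells given 50 mM lactate for 24 h. No vehicle is named for the control and no pH of the medium is given. AB2.2 is 1 cell line, the feeders were not removed by any step the sources name, and the labels do not say whether the libraries of a group came from separate cultures. P-values therefore measure the spread between these libraries, which may be technical.

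The libraries held between 18067562 and 19077885 reads on genes. The 8 ESC markers were above 0 in every library, with a summed level of 4540 and 4845 CPM (reads scaled to a common library size) in control and 4900 and 5658 in lactate. The 10 feeder fibroblast markers were also above 0 in every library, with sums of 632 and 905 CPM in control and 525 and 633 in lactate, and 5 of them were higher and 5 lower with lactate. Reads on mitochondrial genes made up 5.48% and 2.43% of the control and 5.72% and 2.82% of the lactate libraries, so this share separated the replicate numbers and not the groups. The part of feeder RNA or of the mitochondrial share in the values of the subunits was not tested, and in such bulk samples fewer cells of a type and less RNA per cell cannot be told apart.

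The sequences that the complex reads are shown first, as they occur in the promoters of a subunit and of several targets. Whether they bear on any value below was not tested. The E-box CACGTG and the E2F motif TTCCCGC, each on both strands, were searched from 250 bases before to 50 after the start of each gene in RefSeq promoters on GRCm38.p6. The 2 motifs were counted separately, and their letters allow matches to share no more than an end base. Of 27025 genes in that table, 8.09% held the E-box, 5.29% the E2F motif and 0.611% both. Below are 190 bases, from 180 before to 10 after the start, for Max, for Mnt, which encodes another partner of MAX, and for 4 germline targets, with every match in capitals. Max lies at chr12:76962239-76962428 on the minus strand, Mnt at chr11:74830744-74830933 on the plus strand, and Taf7l at chrX:134476481-134476670 on the minus strand. Sycp3 lies at chr10:88459407-88459596, Hormad1 at chr3:95559497-95559686 and Tdrd1 at chr19:56826029-56826218, all 3 on the plus strand. Sycp3 and Hormad1 were chosen for display after their values were seen, as targets with both motifs that differed in response. Mnt, Taf7l and Tdrd1 are among the genes named for the lowest p-values of their lists. Every gene shown holds an E-box, which 56.5% of the germline targets and 28.6% of the other MAX partners with a promoter entry do. The display is thus a selection and does not stand for the lists.
Max: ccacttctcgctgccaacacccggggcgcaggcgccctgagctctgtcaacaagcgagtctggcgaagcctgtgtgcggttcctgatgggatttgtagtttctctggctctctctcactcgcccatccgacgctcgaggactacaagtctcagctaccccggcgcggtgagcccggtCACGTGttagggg
Mnt: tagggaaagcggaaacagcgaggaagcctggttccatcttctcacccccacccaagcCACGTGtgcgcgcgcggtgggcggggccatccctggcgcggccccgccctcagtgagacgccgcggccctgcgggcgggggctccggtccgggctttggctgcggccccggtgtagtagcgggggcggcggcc
Taf7l: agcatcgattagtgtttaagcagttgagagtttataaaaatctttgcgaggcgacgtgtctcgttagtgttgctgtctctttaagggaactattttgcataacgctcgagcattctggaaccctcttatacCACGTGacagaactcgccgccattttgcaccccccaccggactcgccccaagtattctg
Sycp3: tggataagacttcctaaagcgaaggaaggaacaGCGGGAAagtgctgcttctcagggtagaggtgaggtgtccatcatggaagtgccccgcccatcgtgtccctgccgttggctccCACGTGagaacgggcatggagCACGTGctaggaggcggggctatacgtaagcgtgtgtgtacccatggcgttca
Hormad1: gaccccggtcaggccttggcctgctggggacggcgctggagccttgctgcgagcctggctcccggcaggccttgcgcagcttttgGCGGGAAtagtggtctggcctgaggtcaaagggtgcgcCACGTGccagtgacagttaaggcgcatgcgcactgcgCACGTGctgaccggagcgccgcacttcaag
Tdrd1: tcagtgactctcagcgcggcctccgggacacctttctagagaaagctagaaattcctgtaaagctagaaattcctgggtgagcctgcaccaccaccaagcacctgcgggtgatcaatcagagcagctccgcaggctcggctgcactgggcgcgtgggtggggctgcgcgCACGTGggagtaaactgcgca

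Among the subunits, 8 of 10 had an entry in the promoter table, all but Rybp and Yaf2, and 2 of these 8 held an E-box. In Max the first base of the E-box lies 3 bases before the start, and in Tfdp1 it lies 231 bases before. None of the 8 held the E2F motif. Of the germline targets 23 of 25 had an entry, of which 13 held an E-box (56.5%), 10 the E2F motif (43.5%) and 6 both (26.1%). A match describes the letters in this window and is not a measured site of binding.

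The pair MGA and MAX gives the complex its hold on the E-box, and Max also serves the MYC proteins. Mga (GRCm38 chromosome 2, 119897228 to 119969581) had 518 and 420 CPM in control and 442 and 367 CPM in lactate. The groups overlapped, and Mga did not pass the test (log2 fold change -0.21, SE 0.17, adjusted p = 0.515, edgeR quasi-likelihood test with Benjamini-Hochberg adjustment). The log2 fold change of Mga was -0.06 without the first control library, -0.08 without the second lactate library and -0.37 without the first. Max (chromosome 12, 76937269 to 76962201) had 99.1 and 73.8 CPM in control and 63.4 and 58.2 CPM in lactate, from 1714, 1400, 1178 and 1148 reads. Both lactate libraries were below both control libraries, with a mean of 60.8 ± 3.66 against 86.4 ± 17.9 CPM (SD, n = 2 each). The control libraries stood further from each other than the second of them stood from the lactate libraries. The log2 fold change of Max was -0.51 with an SE of 0.18, at an unadjusted p of 0.0261 and an adjusted p of 0.161 in the same edgeR test. Without the first control library it was -0.29, and over 11 other settings of normalization, filter, test and unit it ran from -0.55 to -0.44 with adjusted p from 0.0772 to 0.522.

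E2F6 and DP1 form the second DNA-binding pair, in which E2F6 lacks the activating domain of other E2F proteins. E2f6 (chromosome 12, 16810963 to 16839742) had 28.4 and 29.0 CPM in control and 32.5 and 32.7 CPM in lactate. Both lactate libraries were higher, by a log2 fold change of 0.18 with an SE of 0.14, and edgeR gave an adjusted p of 0.473. Tfdp1 (chromosome 8, 13338751 to 13378448) had 156 and 154 CPM in control and 157 and 161 CPM in lactate. The 2 groups lay side by side with a log2 fold change of 0.04, an SE of 0.12 and an adjusted p of 0.897 in edgeR. For this gene the sign turned to -0.0067 when no filter on low counts was used.

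L3mbtl2 (chromosome 15, 81663889 to 81688315), the gene of the subunit with MBT domains, had 107 and 136 CPM in control and 95.9 and 114 CPM in lactate. The groups overlapped and the log2 fold change of -0.21 (SE 0.17) had an adjusted p of 0.507 in edgeR. It was -0.03 without the second control library and -0.38 without the first. Chadl overlaps L3mbtl2 on the opposite strand and had between 507 and 667 reads in a library, and the sources do not say whether the counting used strand.

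PCGF6 and RNF2 are the RING finger pair at the core. Pcgf6 (chromosome 19, 47033617 to 47050906), found in no other PRC1 form, had 56.4 and 56.1 CPM in control and 60.8 and 66.6 CPM in lactate. Both lactate libraries were above both control libraries, with a log2 fold change of 0.18, an SE of 0.13 and an adjusted p of 0.454 in edgeR. Rnf2 (chromosome 1, 151458004 to 151500955), shared by all PRC1 forms, had 143 and 111 CPM in control and 179 and 134 CPM in lactate. The first control library was above the second lactate library, so the groups overlapped. The log2 fold change of Rnf2 was 0.30 (SE 0.20, adjusted p = 0.415, edgeR) and was 0.06 without the first lactate library. Trmt1l overlaps Rnf2 on the opposite strand with 601 to 759 reads in a library.

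Rybp and Yaf2 encode paralogs that take the same place in the complex, and both were higher in the lactate libraries. Rybp (chromosome 6, 100228565 to 100287485) had 215 and 194 CPM in control and 295 and 249 CPM in lactate. The lactate mean was 272 ± 32.02 CPM against 204 ± 14.7 CPM (SD, n = 2 each), and the groups did not overlap. Rybp had a log2 fold change of 0.41 with an SE of 0.15, an unadjusted p of 0.0316 and an adjusted p of 0.175 in edgeR, and a log2 fold change of 0.27 without the first lactate library. Its reads could also be shared with the pseudogene Rybp-ps, which had 41 and 48 reads in control and 52 and 83 in lactate, against 3678 to 5476 reads for Rybp.

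Yaf2 (chromosome 15, 93284278 to 93336935), the least abundant of the 10 subunits, had 11.6 and 9.70 CPM in control and 15.7 and 15.4 CPM in lactate. These rest on 201, 184, 291 and 303 reads. The lactate libraries lay close together at 15.5 ± 0.209 CPM and above the control libraries at 10.7 ± 1.36 CPM (SD, n = 2 each). The log2 fold change of 0.54 (SE 0.18) was the highest among the subunits, with an unadjusted p of 0.0211 and an adjusted p of 0.147 in edgeR. Over the 11 other settings the log2 fold change of Yaf2 ran from 0.50 to 0.63, with adjusted p from 0.121 to 0.307. That of Rybp ran from 0.37 to 0.52, with adjusted p from 0.119 to 0.309. Those settings keep every library, and leaving out each library in turn gave log2 fold changes from 0.42 to 0.67 for Yaf2.

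Cbx3 (chromosome 6, 51470360 to 51483704), which HP1 complexes also use, had 111 and 100.5 CPM in control and 107 and 109 CPM in lactate. Both lactate libraries lay between the control libraries, with a log2 fold change of 0.03, an SE of 0.13 and an adjusted p of 0.930 in edgeR. The sign of this small value turned in 2 settings, to -0.02 without a filter on low counts and to -0.05 without the second control library. The 2 counting methods of the authors gave different totals for most subunits, with raw counts from 1.36 to 1.41 times the RSEM expected count for Max and from 1.20 to 1.26 times for Pcgf6. For Cbx3 the raw count was 0.948 and 0.803 times the RSEM expected count in control and 0.935 and 0.810 times in lactate. The ratio of Cbx3 moved with the replicate number, and 8 Cbx3 pseudogenes are annotated with at most 45 reads each in a library.

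**Figure D1:**
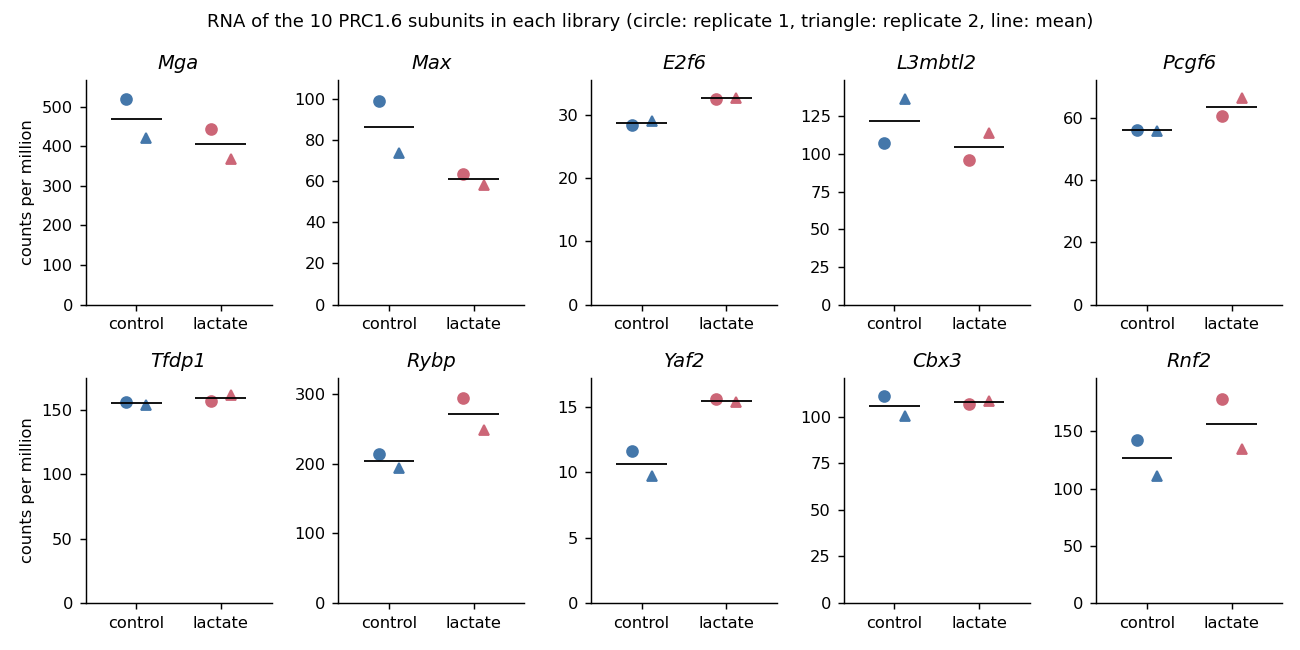
Each panel plots the CPM (y axis, from 0) of a subunit gene in the control and lactate libraries, with circles for replicate 1, triangles for replicate 2 and a line at the mean. Max lies lower in both lactate libraries, Rybp and Yaf2 lie higher in both, and Mga, L3mbtl2, Cbx3 and Rnf2 overlap between the groups.

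Read together, 7 subunits had a positive and 3 a negative log2 fold change, and their median was 0.11 beside 0.01 for all genes tested. No subunit was called by edgeR or by DESeq2, which called 210 genes higher and 164 lower. In limma-trend on log2(FPKM + 1) 0 genes of any kind were called, so that test could call no subunit. Of all genes tested, 0.552% were called higher and 0.348% lower by edgeR. At an unadjusted p under 0.05, 3 of 10 subunits passed in edgeR, 3 in DESeq2, where 15.5% of all genes passed, and 2 in limma-trend, where 14.6% passed. In edgeR these were 2 higher and 1 lower, where 23.1% of all genes passed in either direction, 11.7% higher and 11.4% lower. The libraries of the groups did not overlap for 6 of 10 subunits, 5 higher and 1 lower. Over all genes tested this held for 52.9%, with 27.0% higher and 25.9% lower. The share of subunits without overlap was thus near that of all genes. With 2 libraries against 2, a two-sided exact permutation test of 1 gene cannot give a p below 0.333.

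**Figure D2:**
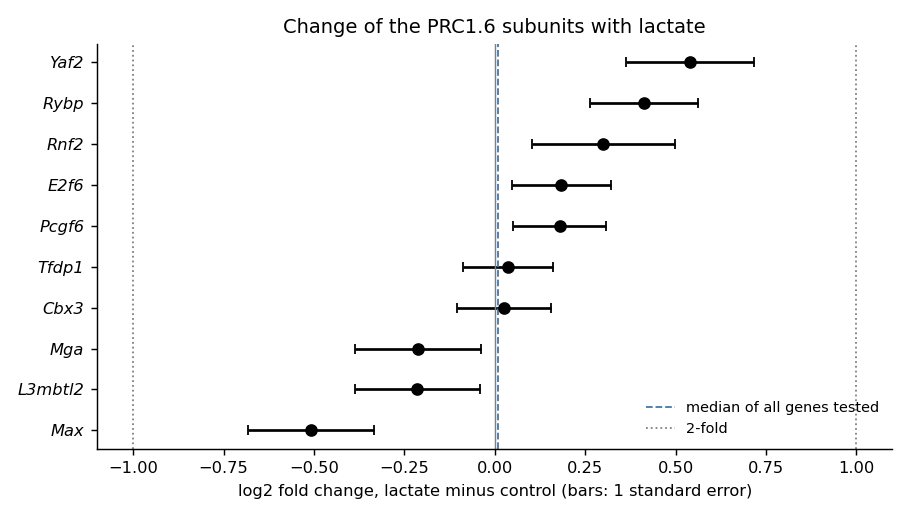
The log2 fold change of each subunit (x axis, lactate minus control) is plotted with bars of 1 standard error, with dotted lines at a 2-fold change and a dashed line at the median of all genes tested. The 10 values run from -0.51 for Max to 0.54 for Yaf2, and all lie inside the 2-fold lines.

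Levels were compared between subunits on the FPKM scale, which divides by transcript length. In control the order by mean FPKM was Cbx3 (88.2), Rnf2 (75.7), Tfdp1 (74.4), Mga (73.0), Max (54.2), Rybp (53.3), L3mbtl2 (48.6), Pcgf6 (27.0), E2f6 (13.3) and Yaf2 (6.995). The ranges of neighbours overlapped from Rnf2 through Tfdp1 to Mga, and from Max through Rybp to L3mbtl2. Cbx3 stood apart from Rnf2, and Pcgf6, E2f6 and Yaf2 each stood apart from their neighbours. The first place of Cbx3 depends on the RSEM counts behind FPKM. In raw counts Cbx3 had 1925 and 1906 reads in control, at lengths of 1888 and 1829 bases. Rnf2 had 2470 and 2110 raw reads in control, at lengths of 1927 and 1857 bases, and so more raw reads per base than Cbx3. The mean level of Cbx3 was 12.6 times that of Yaf2 in control and 9.12 times in lactate.

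In lactate the first place was again held by Cbx3 (99.3 FPKM), whose range overlapped that of Rnf2 (87.7), and the ranges also overlapped from Rnf2 to Tfdp1 (79.7) and from Tfdp1 to Rybp (76.5). Rybp thus stood above Mga (55.2) in lactate and below it in control, and the ranges of the pair were apart in both groups. L3mbtl2 (43.2) and Max (36.4) overlapped below them, and Pcgf6 (30.6), E2f6 (16.2) and Yaf2 (10.9) kept the last places of the order, each apart from its neighbours. The order of the 10 subunits in control was the same in TPM. TPM rescales FPKM within a library, so that comparison could hardly have changed the order.

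**Figure D3:**
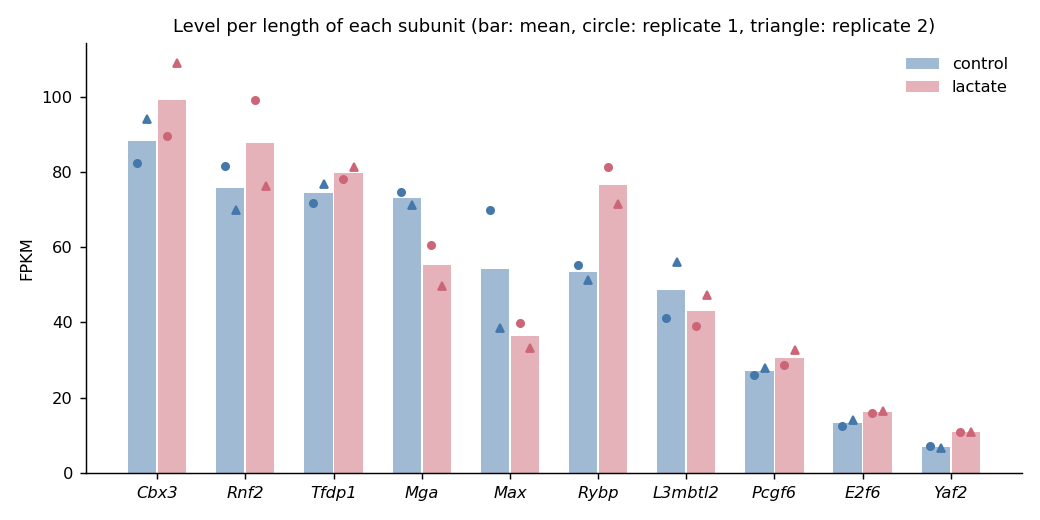
Bars give the mean FPKM (y axis, from 0) of each subunit in control and lactate, ordered by the control mean, with circles for replicate 1 and triangles for replicate 2. On the FPKM scale Cbx3 is at the top and Yaf2 at the bottom in both groups, and Rybp passes Mga in the lactate libraries. The first place of Cbx3 does not hold in raw counts per length.

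Part of the FPKM of Mga came from the length that RSEM assigned to it. The mean transcript length of Mga was 6668 and 5971 bases in control and 7335 and 7580 bases in lactate, longer in both lactate libraries by 1138 bases in the mean. GENCODE M21 lists 15 transcripts of Mga between 649 and 13931 bases. Its FPKM was 74.8 and 71.2 in control and 60.7 and 49.8 in lactate, so the groups were apart on this scale and overlapped in CPM. For Max the length was 1471 and 1884 bases in control and 1615 and 1872 in lactate, and the first control library, with the shortest length, had 69.9 FPKM against 38.5 in the second. Lengths did not overlap between groups for 4 of 10 subunits, longer in Mga, Pcgf6 and Rnf2 and shorter in Cbx3, against 21.9% of all genes tested. That share also counts genes whose length is the same in every library, such as Sox2 at 2057 bases. The subunits have from 2 (Yaf2) to 15 (Mga) listed transcripts, so the shares do not compare like with like. Which transcripts gave these lengths was not tested.

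Most subunits have paralogs that serve other complexes, and their share within the family shows how the choice of subunit stood at the RNA level. Rnf2 made up 95.1% ± 1.71 of the FPKM of Rnf2 and Ring1 in control and 95.3% ± 1.83 in lactate (SD, n = 2 each). Rybp made up 88.4% ± 0.0441 of Rybp and Yaf2 in control and 87.5% ± 0.973 in lactate. Pcgf6 made up 21.8% ± 2.66 of the 6 PCGF genes in control and 25.2% ± 2.68 in lactate, with overlapping libraries in FPKM and no overlap in counts per length. None of these 3 differences between means was larger than 4 percentage points.

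E2f6 made up 6.55% and 8.56% of the FPKM of the 8 E2F genes in control and 8.97% and 10.96% in lactate, so that both lactate libraries were higher. Tfdp1 made up 76.5% ± 3.81 of Tfdp1 and Tfdp2 in control and 74.3% ± 1.58 in lactate. Cbx3 made up 36.6% ± 2.39 of the 3 HP1 genes in control and 38.5% ± 1.32 in lactate (SD, n = 2 each), or 28.3% and 29.8% from raw counts per length.

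MAX has several partners besides MGA, and the RNA of these 8 genes lay in 2 directions. The median log2 fold change was -0.43, with 3 genes higher and 5 lower. The libraries of the groups did not overlap for any of the 8, as for 52.9% of all genes tested. At an unadjusted edgeR p under 0.05, 2 were higher and 4 lower, beside 11.7% and 11.4% of all genes tested. Mnt, which encodes a repressor that pairs with MAX, had 62.2 and 57.6 CPM in control and 33.0 and 31.1 CPM in lactate. Mnt was lower with lactate at an adjusted p of 0.0482 in edgeR, with a log2 fold change of -0.90 and an SE of 0.13, which is under the 2-fold threshold of a call. Over 15 other settings its log2 fold change ran from -0.97 to -0.78, and its adjusted p from 0.00185 to 0.243, under 0.05 in 8 of them.

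Mycn, a MYC family activator, had 62.3 and 61.7 CPM in control and 91.0 and 100.5 CPM in lactate. Its log2 fold change was 0.63 (SE 0.13, adjusted p = 0.0674, edgeR). Mxi1 and Mxd3, which encode MAX-binding repressors of the MXD family, had log2 fold changes of -0.70 and -0.55 with adjusted p of 0.0839 and 0.125 in edgeR. The other 4 partners were named after their values were seen. Myc had a log2 fold change of 0.64, Mycl of -0.31, Mxd1 of 0.42 and Mxd4 of -0.97. Together, Myc, Mycn and Mycl made up 46.6% and 48.0% of the FPKM of the 8 partners in control and 66.3% and 68.7% in lactate, a share that was also computed after the values were seen.

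**Figure D4:**
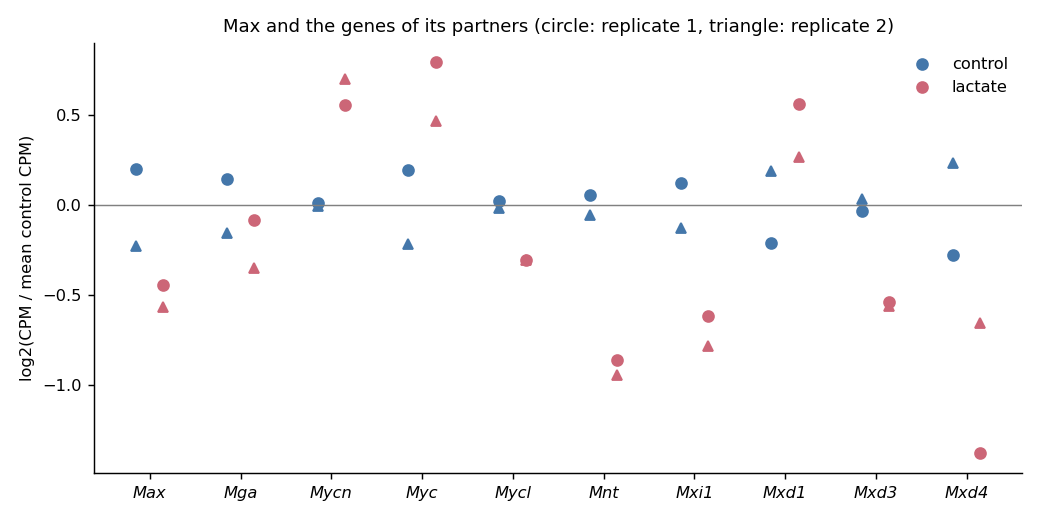
Log2 of the CPM in each library over the mean control CPM (y axis) for Max, Mga and the 8 other MAX partners, with circles for replicate 1 and triangles for replicate 2. In both lactate libraries Mycn, Myc and Mxd1 lie above both control libraries. Mnt, Mxi1, Mxd3, Mxd4 and Mycl lie below them, with Max on the lower side.

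Genes around the complex were counted in lists chosen with the results known. Of 9 associated enzymes and paralogs, 3 were higher and 6 lower with a median log2 fold change of -0.12. Only Ehmt2 among these 9 had an unadjusted edgeR p under 0.05, where 23.1% of all genes tested did. Ehmt2 encodes G9a, a histone H3 methyltransferase found with PRC1.6, and had 132 and 167 CPM in control and 75.4 and 91.5 CPM in lactate. Both lactate libraries were lower, with a log2 fold change of -0.84, an SE of 0.18 and an adjusted p of 0.0678 in edgeR. Over 15 other settings its log2 fold change ran from -1.01 to -0.66 and its adjusted p was under 0.05 in 3.

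Of 19 subunits of other PRC1 forms, 16 had a negative log2 fold change, and the median was -0.24. An unadjusted edgeR p under 0.05 was reached by 23.1% of all genes tested and by 3 of these 19. These 3 were Kdm2b (-0.50), Cbx2 (-0.49) and Bcorl1 (-0.52), with adjusted p of 0.104, 0.110 and 0.142 in edgeR. KDM2B brings another PRC1 form to CpG islands, CBX2 reads methylated histone H3 in canonical PRC1, and BCORL1 is a corepressor. Of 7 other E2F genes 6 were negative with a median of -0.18, and E2f1, a cell cycle activator, stood at -0.47 (adjusted p = 0.106, edgeR). Of 5 tested genes of other MBT proteins 3 were negative, with the lowest p for Sfmbt2 (log2 fold change -0.40). Of 10 PRC2 subunits 6 were positive with a median of 0.06, and the lowest p belonged to Epop (log2 fold change -0.39). None of the genes of these 3 groups or of the other PRC1 forms was called, and in the MBT and PRC2 groups none had an unadjusted p under 0.05 in edgeR.

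The germline genes that the complex is known to hold down are its best known targets in ESCs. Of 25 listed targets 24 were tested, all but Mei1, and 22 of them had a positive log2 fold change, with a median of 0.71. At an unadjusted edgeR p under 0.05, 15 were higher and 1 lower, beside 11.7% and 11.4% of all genes tested. The libraries did not overlap for 18 higher and 1 lower, beside 27.0% and 25.9% of all genes tested. Several of these genes were named by the study from these same libraries, so the list is not independent evidence of its direction. Only Taf7l among them was called by edgeR, where 0.552% of all genes tested were called higher, and DESeq2 called Taf7l and Tdrd1.

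Taf7l, a germ cell paralog of a TFIID subunit, had 3.87 and 2.74 CPM in control and 11.6 and 11.7 CPM in lactate. Taf7l rose by a log2 fold change of 1.81 with an SE of 0.23 and an adjusted p of 0.0406 in edgeR. Without the first control library 0 targets were called, with 13 of the targets at an unadjusted p under 0.05 on the higher side, and over 15 other settings the adjusted p of Taf7l was under 0.05 in 10. Tdrd1, a Tudor protein of the piRNA pathway, had 3 and 9 reads in control and 32 and 46 reads in lactate, with a log2 fold change of 2.60 (SE 0.46, adjusted p = 0.0559, edgeR). Mov10l1, a helicase needed to make piRNAs, had 10.6 and 11.8 CPM in control and 20.7 and 22.8 CPM in lactate, with a log2 fold change of 0.96 (SE 0.17, adjusted p = 0.0553, edgeR).

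Tuba3a, a testis tubulin gene with a near-identical copy in Tuba3b that could share its reads, went the other way. It had 107 and 120 CPM in control and 59.3 and 66.1 CPM in lactate, with a log2 fold change of -0.86 and an adjusted p of 0.0520 in edgeR. Of the 6 targets with both motifs, 5 had a positive log2 fold change, from 0.43 for Stag3 to 0.86 for Sycp3, and Hormad1 was the exception. The pair shown above for its difference, Sycp3 and Hormad1, encodes axis proteins of meiotic chromosomes, and each held 2 E-boxes and 1 E2F motif. Sycp3 had 8.04 and 4.85 CPM in control and 12.05 and 11.3 CPM in lactate, while Hormad1 had 34.7 and 21.7 CPM in control and 32.1 and 21.3 CPM in lactate. The lactate libraries were both higher for Sycp3 (log2 fold change 0.86), and the groups overlapped for Hormad1 (log2 fold change -0.08).

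**Figure D5:**
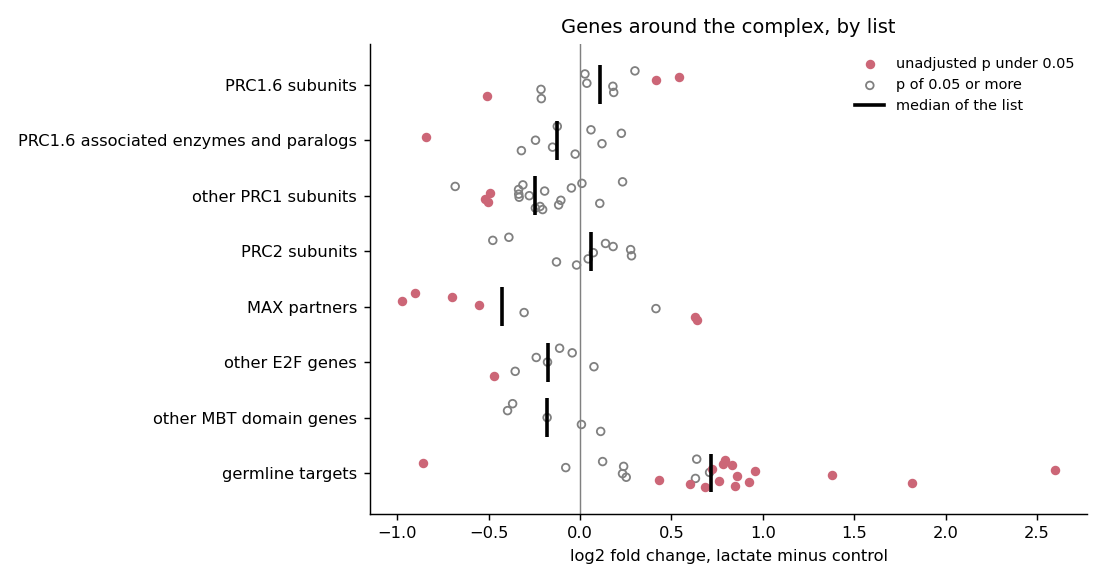
Each point is the log2 fold change of a gene (x axis, lactate minus control), by list, filled where the unadjusted edgeR p was under 0.05, with a line at the median of the list. The subunits lie on both sides of 0, the MAX partners fall into a lower and a higher group, and 22 of 24 germline targets lie above 0.

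Genes with the motifs were also counted over the whole table. Of 12078 tested genes with a promoter, 0.613% were called higher. Among the 1367 with an E-box this was 0.951% and the median log2 fold change was -0.01, beside 0.01 for the 12078. Among the 138 genes with both motifs 0 were called by edgeR, with 15.9% higher and 10.9% lower at an unadjusted p under 0.05. Among the 1137 with an E2F motif 0 were called higher and 3 lower by edgeR, the median was -0.02, and 10.4% were higher and 14.6% lower at an unadjusted p under 0.05. Those shares were 12.6% and 12.2% for the 12078.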

How the data were processed

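RNA was measured by RNA-seq in 2 control and 2 lactate libraries of AB2.2 ESCs. The authors trimmed reads with cutadapt 1.16, mapped them with STAR to mm10 and deposited raw counts per gene, which were the input of the tests. For each library the authors also deposited RSEM expected counts, TPM, FPKM and a mean transcript length. Whether the counting used strand is not given in the sources used here.

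The test was run on counts in edgeR 4.0.16 under R 4.3.3 (filterByExpr, TMM, quasi-likelihood test in its legacy form, lactate against control without a term for replicates), with Benjamini-Hochberg adjustment over 18661 genes. The common biological coefficient of variation was 15.9%. CPM values use TMM-scaled library sizes. Calls needed an adjusted p under 0.05 and more than a 2-fold difference. Expected counts were rounded for their alternative. The FPKM alternatives used limma-trend (limma 3.58.1) with a pseudocount of 1 or 0.1 before the log2, for genes whose mean FPKM exceeded 0.1, and DESeq2 was version 1.42.0. Other alternatives were other scalings (RLE, upper quartile, library totals), other filters, mitochondrial genes left out, edgeR without its legacy form, a replicate block and each library left out. The tests were tried on simulated counts, drawn with the common coefficient of variation for every gene and with no effect of replicate number. That trial does not show how the tests behave where same-numbered libraries deviate together.

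The members and gene lists were chosen with earlier results of these data known. Named were the 10 subunits, the members of each other list at an unadjusted p under 0.05, at most 4 by lowest p, and for a list with none the member with the lowest p. Paralogs were also named where they entered a share. Positions are from GENCODE M21 on GRCm38. The qRT-PCR and ChIP data of the study were not analysed here.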

Additional observations from a re-analysis of the deposited data

How the results depend on the processing

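The number of libraries, 2 a group, limits the precision of every value, and depth limits Tdrd1 (3 to 46 reads). Subunits were called in 0 of 16 alternatives, a count that says little about so short a list. In the report only 0.552% of all genes tested were called higher and 0.348% lower. The limma-trend alternatives called 0 genes of any kind, so they could call no subunit. Genes called higher and lower numbered 103 and 65, against 210 and 164 with DESeq2, 482 and 325 without a filter on low counts, 27 and 17 with RSEM expected counts, and 0 and 0 with limma-trend on log2(FPKM + 1) and on log2(FPKM + 0.1), where 2914 and 2954 genes had an unadjusted p under 0.05. Library totals alone gave 108 and 40, which moved the share of higher calls from 61.3% to 73.0% and the median of all genes from 0.01 to 0.08. Leaving out each library in turn gave 4 to 522 higher and 4 to 365 lower, where the lone sample of a group is assumed to vary like the other group. The lowest numbers came without the first control library. Germline targets called higher, 1 in the report, were 2 with DESeq2, 2 without a filter, 0 with RSEM expected counts, 0 and 0 with limma-trend, and 0 to 4 without a library. Subunits at an unadjusted p under 0.05, 3 in the report, were 1 to 3 without a library, and 1 when either control library or the first lactate library was left out. The median of the subunits, 0.11, was 0.14 with upper-quartile factors, 0.18 with library totals, 0.064 without a filter, 0.080 with RSEM expected counts, 0.17 and 0.17 with limma-trend and 0.049 to 0.13 without a library. Signs turned for Tfdp1 (-0.0067) and Cbx3 (-0.018) without a filter, and for Cbx3 (-0.046) without the second control library, where leaving out a library gave -0.046 to 0.096. The cause of these differences was not tested.

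The labels number the libraries but do not say that a number marks a shared culture or day. The deviations of same-numbered libraries from their group means had a correlation of 0.56 over genes, with only 2 pairs. With the replicate number as a block, edgeR called 761 genes higher and 395 lower and 3 germline targets higher. Under the block 8 subunits had an unadjusted p under 0.05, and 7 an adjusted p under 0.05, of which 0 passed 2-fold. Of all genes tested, 51.2% and 44.5% passed these thresholds under the block. The adjusted p in edgeR with the block was 1.5e-05 for Max, 1.5e-05 for Rybp, 0.00043 for Rnf2 and 0.00086 for Yaf2. It was 0.0065 for Mga, 0.0084 for L3mbtl2, 0.036 for Pcgf6, 0.073 for E2f6, 0.647 for Tfdp1 and 0.747 for Cbx3.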
